A study of Macaca mulatta with 5 samples.

Results

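The longest topologically associating domains of cortical neurons were examined in Hi-C maps of rhesus monkeys (Macaca mulatta) given morphine or saline. They were chosen by size alone, as domains whose listed end minus start was 3 Mb or more. Of 1198 domains in the saline map, 266 met this limit, and of 1244 in the morphine map, 260 did. The 2 sets were kept apart throughout. Because size chose them, their size is a description and no finding.

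Hi-C counts contacts between pairs of loci in the nucleus. The 4 animals were male, 3 to 4 years old, with 2 monkeys in each group. The morphine group received subcutaneous morphine, which acts on the mu-opioid receptor, 3 times a day for 90 days, at doses raised stepwise from 3 to 15 mg/kg, and the saline group received the vehicle at 0.5 mL/kg on the same schedule. The cells were adult neurons purified from the cortex. There were 3 morphine and 2 saline libraries, so that some morphine libraries came from the same monkey. Each list names its group alone and was taken as 1 map pooled over that group. Replicates could therefore not be compared, no test between the maps was made, and the 95% intervals given here cover counting error or the variation among domains of a map, not among monkeys. Hi-C carries no level of a marker gene, and the purity of the neurons was not checked here.

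A topologically associating domain is a stretch of chromosome whose loci touch each other more often than loci beyond its ends. Domains and loops are shaped by cohesin, a ring-shaped complex that extrudes chromatin until it meets CTCF, a DNA-binding protein that marks many boundaries. Very long domains are known mostly from gene-poor chromatin, where loop anchors are sparse, and in neurons several long genes of synaptic adhesion proteins lie in such surroundings. The sources used here do not settle which rhesus assembly the positions refer to, so no domain was assigned to genes and no sequence is given. Positions count from 1 and are written as chromosome, start and end.

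The large domains were a minority of the domains and a larger part of the genome. They made up 22.2% of the saline domains (95% interval 19.9 to 24.7) and 20.9% of the morphine domains (18.7 to 23.3). Their summed length was 1041 Mb in the saline map, or 39.5% of the length in domains, and 971.2 Mb in the morphine map, or 36.8%. The median large domain spanned 3.56 Mb in the saline map, with quartiles of 3.20 and 4.24 Mb, and 3.48 Mb in the morphine map, with quartiles of 3.19 and 4.00 Mb. The numbers differed by less than their counting error (235 to 300 saline and 229 to 294 morphine domains).

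The longest domains were saline. There were 33 saline domains of 5 Mb or more (Poisson interval 22.7 to 46.3) and 25 morphine domains (16.2 to 36.9), which overlap in their counting error, and 6 saline domains were longer than the longest morphine domain of 6.88 Mb. The size limit fell in the middle of a continuous range. At exactly 3 Mb there were 12 saline and 13 morphine domains, and 1 bin below it, at 2.96 Mb, there were 11 in each map. Among those at the limit in the saline map were domains at chr1:25080001-28080000, with 28 loops inside, and at chr11:58120001-61120000, with 1 loop. Just below it were domains at chr3:165600001-168560000, with 5 loops, and at chr7:80560001-83520000, with 6. In the morphine map, domains at chr1:11240001-14240000 (27 loops) and at chr10:22160001-25160000 (11 loops) were at the limit, and domains at chr8:30800001-33760000 (5 loops) and at chr9:77080001-80040000 (1 loop) just below it. The loop numbers of these neighbours overlapped across the limit in the saline map. In the morphine map, both domains at the limit held more loops than both below it. They are only some of the domains tied at these sizes, so no difference at the limit is read from them.

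**Figure D1:**
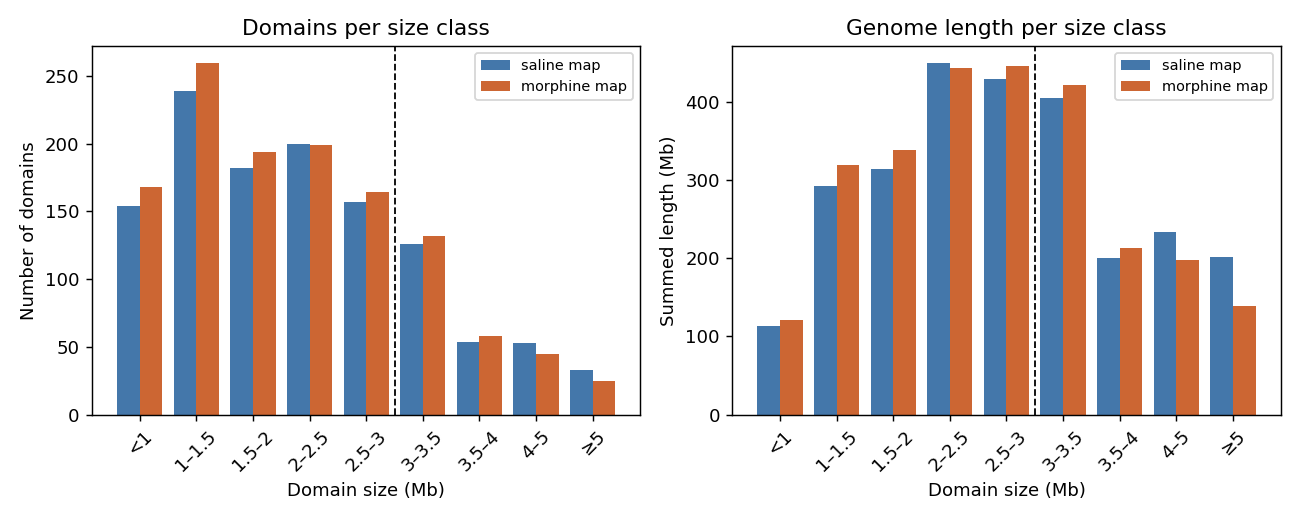
Number of domains (left) and their summed length in Mb (right) by domain size class in Mb, for the saline and the morphine map; the dashed line marks the 3 Mb limit. The classes run on without a gap at the limit, and the class of 5 Mb or more holds 33 saline and 25 morphine domains.

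Large domains lay on every chromosome and were not gathered at chromosome ends. In the saline map, 44 of 266 (16.5%, 12.3 to 21.6) lay within 10 Mb of the outermost listed domain end, against 172 of 932 smaller domains (18.5%, 16.01 to 21.1). In the morphine map the counts were 39 of 260 (15.0%, 10.9 to 19.9) and 180 of 984 (18.3%, 15.9 to 20.9). The lists themselves start no closer to a chromosome start than 2.28 Mb (saline) and 2.36 Mb (morphine), so no domain of any size is listed before that. The distance to the far chromosome ends is not known, because the assembly is not settled. A large domain had a large neighbour in 119 of 266 saline cases (44.7%, 38.7 to 50.9) and 113 of 260 morphine cases (43.5%, 37.4 to 49.7). Smaller domains had one in 37.4% (34.3 to 40.6) and 35.4% (32.4 to 38.4), and the intervals of large and smaller domains overlapped in both maps. The longest chain was 5 adjacent large morphine domains at chr17:28280001-48960000, with 8, 1, 1, 2 and 0 loops inside. The saline map had 3 adjacent large domains there, of 4.88, 4.72 and 4.00 Mb, with 0, 0 and 2 loops. The saline map had 3 chains of 4 large domains, at chr1:64240001-84160000, at chr2:5480001-22680000 and at chr9:64920001-80160000. These chains were singled out after their values were seen.

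The share of a chromosome's domain length that lay in large domains was less even in the morphine map. It ranged from 30.8% on chromosome 3 to 49.6% on chromosome 5 in the saline map, and from 16.8% on chromosome 9 to 53.8% on chromosome 10 in the morphine map. The share was lower in the morphine map on 13 of 21 chromosomes and higher on 8. Chromosome 9 had 12 large saline domains and 5 large morphine domains, with shares of 36.5% and 16.8%. Chromosome 11 had 14 and 10 (39.5% and 27.0%), and chromosome 5 had 21 and 18 (49.6% and 37.3%). Chromosome 10 went the other way, with 8 large saline and 11 large morphine domains (35.8% and 53.8%). These counts are small, and a boundary moved by a few bins can carry a domain over the limit.

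On chromosome 9, large saline domains faced smaller morphine domains through both short and long shifts of boundaries. The saline domain from 77120001 to 80160000, of 3.04 Mb, faced a morphine domain of 2.96 Mb, just under the limit. The saline domain from 48400001 to 52280000, of 3.88 Mb, faced a best-overlapping morphine domain of 2.88 Mb, with a morphine boundary of score 0.438 inside. The saline domain from 68800001 to 72120000, of 3.32 Mb, held 2 morphine boundaries, and its best-overlapping morphine domain was 1.68 Mb long. On chromosome 10, the morphine domain from 32680001 to 38280000, of 5.60 Mb, took in a saline domain of 3.52 Mb that ended at 36200000, at a saline boundary of score 0.353. These domains were singled out after their values were seen.

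**Figure D2:**
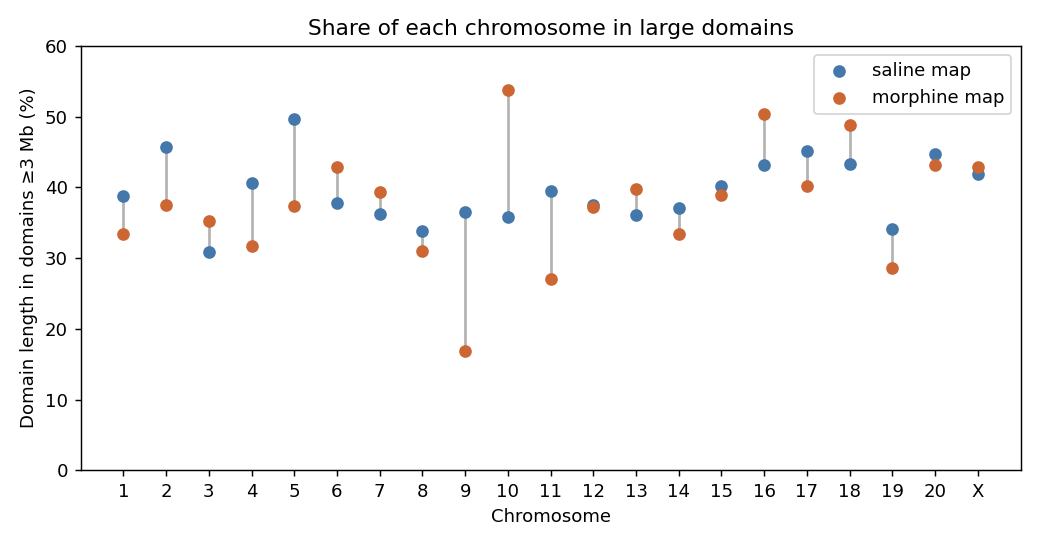
Percent of each chromosome's domain length that lay in domains of 3 Mb or more, in the saline and the morphine map (points joined by a line). Chromosome 9 stands at 36.5% (saline) and 16.8% (morphine), and chromosome 10 at 35.8% and 53.8%.

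Boundaries at the ends of large domains had higher scores than boundaries between smaller domains. The boundary score is the authors' measure of how sharply contacts change at a domain end; its scale is not stated. Each boundary was counted once. The median was 0.782 (0.730 to 0.838, n = 465 boundaries) at large saline domains, with quartiles of 0.535 and 1.14, and 0.625 (0.602 to 0.659, n = 754) at boundaries that touched no large domain. In the morphine map it was 0.749 (0.699 to 0.792, n = 458), with quartiles of 0.530 and 1.08, against 0.623 (0.593 to 0.645, n = 807). The quartiles of the 2 kinds overlapped widely, while the intervals of the medians did not. A score of 1 or more was found at 33.1% of the ends of large saline domains (28.9 to 37.6) and 19.5% of the other boundaries (16.7 to 22.5). The morphine shares were 29.9% (25.8 to 34.3) and 16.1% (13.6 to 18.8). Scores under 0.4 were rarer at large domains, at 8.60% against 16.4% in the saline and 8.08% against 16.2% in the morphine map.

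Taken by domain, the higher scores of large domains were present at both ends. The median of the weaker end was 0.566 (0.530 to 0.625) for saline and 0.582 (0.555 to 0.617) for morphine domains, and that of the stronger end 1.07 (1.00 to 1.14) and 1.01 (0.946 to 1.10). For smaller domains the weaker end had 0.502 (0.483 to 0.524) and 0.487 (0.472 to 0.498), and the stronger end 0.836 (0.809 to 0.879) and 0.824 (0.791 to 0.844). Across the size classes the median end score climbed from 0.560 under 1 Mb to 0.809 at 3 to 3.5 Mb in the saline map and then stayed between 0.744 and 0.800. In the morphine map it climbed from 0.530 under 1 Mb to 0.852 at 5 Mb or more.

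The strongest boundary of both lists bordered a large domain. It lay on chromosome 2, at the end of the domain from 149680001 to 152920000, which had the same start and end in both maps. It scored 7.54 (saline) and 7.17 (morphine), while the other end of the same domain scored 0.394 and 0.462. Beyond this boundary the saline map had a further large domain, from 152960001 to 157920000, where the best-overlapping morphine domain was 2.80 Mb long. Chromosome 3 from 123360001 to 126920000 was also listed alike in both maps, with scores of 4.44 and 0.613 at its ends in the saline and 4.73 and 0.590 in the morphine map. On chromosome 10 the domain that began at 59000001 scored 5.36 at its start in the saline and 4.65 in the morphine map. These 3 places, chosen after their scores were seen, kept the same order of strong and weak end in both maps.

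**Figure D3:**
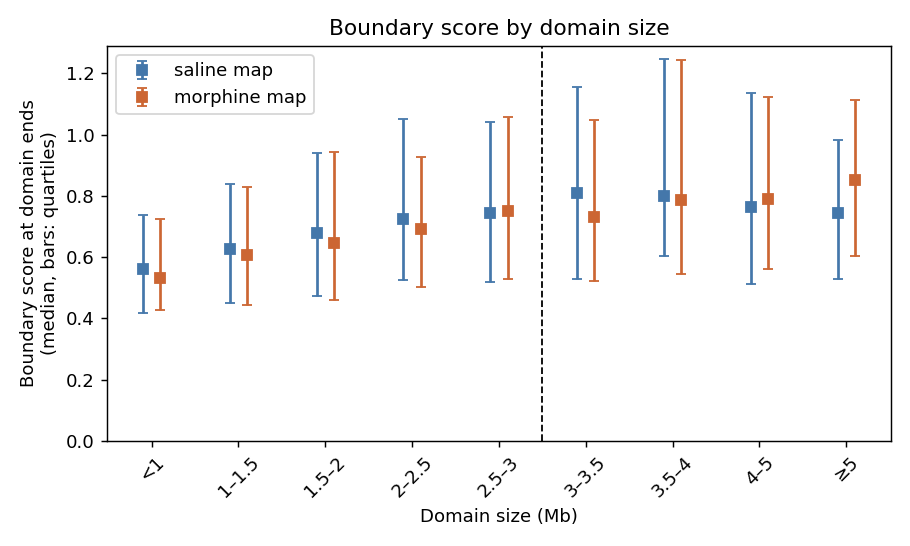
Boundary score at domain ends (authors' score, scale not stated) by domain size class in Mb; squares are medians and bars the quartiles over all ends, each domain giving 2. Medians rise from 0.560 (saline) and 0.530 (morphine) under 1 Mb to 0.744 and 0.752 at 2.5 to 3 Mb. They are 0.809 and 0.732 at 3 to 3.5 Mb.

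Large domains held many loops in number and few per length. A loop is a pair of loci with more contacts than their surroundings, and it was counted when both anchors lay inside the domain. Large saline domains held 1666 saline loops, 30.3% of that map (29.0 to 31.5), at 1.60 per Mb (1.52 to 1.68). Smaller saline domains held 3216 at 2.01 per Mb (1.95 to 2.09), so that the density in large domains was 0.795 of theirs (0.748 to 0.843). Large morphine domains held 2481 morphine loops, 29.4% of that map (28.5 to 30.4), at 2.55 per Mb (2.46 to 2.66), against 2.80 per Mb (2.72 to 2.88) in smaller ones, a ratio of 0.912 (0.868 to 0.958). Next to the limit the saline density was alike on both sides. It was 1.92 per Mb (1.79 to 2.05) at 2.5 to 3 Mb and 1.89 (1.76 to 2.03) at 3 to 3.5 Mb. The morphine values there were 2.73 (2.58 to 2.89) and 2.46 (2.32 to 2.62), with overlapping intervals. When the loop midpoint alone had to lie inside, the ratios of large to smaller domains were 0.762 (0.719 to 0.807) and 0.855 (0.815 to 0.897). The morphine difference was not resolved under 2 other choices: with a limit of 3.5 Mb its ratio was 0.960 (0.906 to 1.02), and with 5 kb anchors alone 0.977 (0.912 to 1.05), against 0.710 (0.660 to 0.764) and 0.802 (0.726 to 0.885) for saline.

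The lower density held on most chromosomes. Large domains had fewer loops per Mb than smaller ones on 17 of 21 chromosomes for saline and on 16 for morphine, with 15 in common. Without chromosomes 10, 16, 19 and 20, a choice made with earlier results of these data known, the ratio was 0.732 (0.683 to 0.783) in the saline and 0.790 (0.744 to 0.838) in the morphine map. On chromosome 10 the order was turned: large domains held 4.48 saline and 7.34 morphine loops per Mb, smaller ones 3.07 and 5.78.

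The class of the longest domains was placed differently in the maps. Domains of 5 Mb or more held 1.39 loops per Mb (1.23 to 1.56) in the saline map, among its lowest classes, and 3.31 per Mb (3.01 to 3.62) in the morphine map, the highest of its classes, with an interval that overlapped those of the classes under 1 Mb (2.44 to 3.04) and of 1.5 to 2 Mb (2.90 to 3.28). Without chromosomes 10, 16, 19 and 20, an alternative chosen after seeing the data, the values were 0.996 (0.858 to 1.15) for 30 saline domains and 2.12 (1.86 to 2.40) for 21 morphine domains. All large domains without these chromosomes held 1.34 saline loops per Mb (1.27 to 1.42) and 1.89 morphine loops per Mb (1.79 to 1.98), so the longest class lay below its map's value for saline and above it for morphine, where the intervals overlapped.

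**Figure D4:**
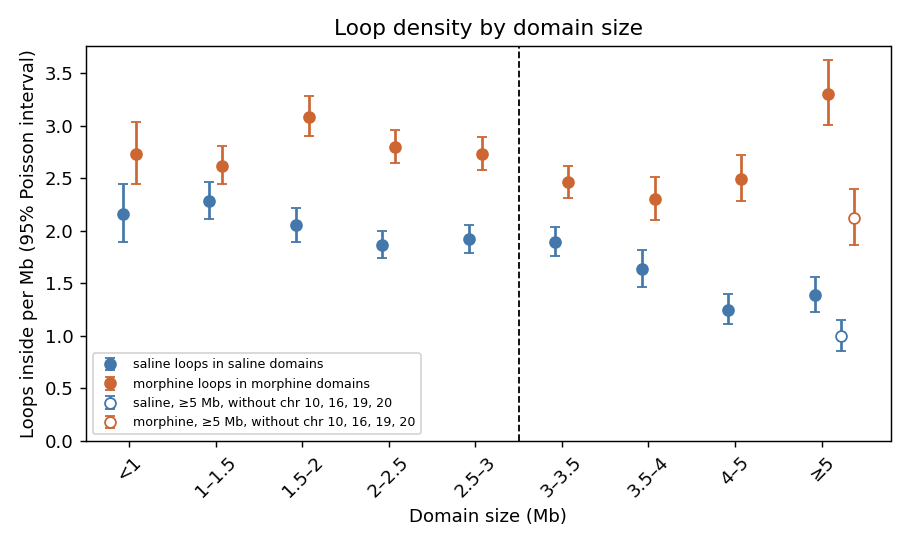
Loops with both anchors inside, per Mb of domain, by domain size class in Mb, with exact 95% Poisson intervals; open symbols leave out chromosomes 10, 16, 19 and 20 from the class of 5 Mb or more. Saline density falls from 1.89 at 3 to 3.5 Mb to 1.25 at 4 to 5 Mb, and the morphine value of 3.31 in the longest class is 2.12 without these 4 chromosomes.

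Loops were spread very unevenly over the large domains. The number of loops per large domain ran from 0 through a median of 3 to 36 in the saline map, and from 0 through 4 to 62 in the morphine map. The 27 saline domains with most loops held 36.0% of the loops in large domains, and 12 of them lay on chromosomes 10, 16, 19 and 20. The 26 corresponding morphine domains held 40.4%, with 16 on these chromosomes. Of all large domains, 29 of 266 saline and 34 of 260 morphine domains lay on these chromosomes. At the other end, 51 of 266 large saline domains (19.2%, 14.6 to 24.4) held no loop, against 19.9% of all saline domains. In the morphine map 57 of 260 (21.9%, 17.0 to 27.5) held none, against 21.1% of all. Both shares were near these backgrounds.

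Loop-free large domains were frequent on chromosome X. It held 8 of the 51 loop-free large domains of the saline map and 8 of the 57 of the morphine map, out of 13 and 15 large domains there. Outside chromosome X, 43 of 253 large saline domains (17.0%) and 49 of 245 large morphine domains (20%) held no loop. Large domains of chromosome X held 0.186 saline and 0.379 morphine loops per Mb, and smaller domains there 0.524 and 0.570. Each of these values was the lowest of any chromosome, so loops were few there in smaller domains too. The loop-free share over all domains of chromosome X was not counted. The largest loop-free saline domain lay at chrX:81680001-89520000, 7.84 Mb, with scores of 0.512 and 0.935 at its ends. The morphine map had no loop inside it either, and divided it among domains of 4.40, 2.52 and 1.68 Mb at boundaries of scores 0.463 and 0.351. The domain from 117160001 to 123120000 on the same chromosome (5.96 Mb) had no loop in either map, and the morphine map placed a loop-free domain from 117480001 to 123280000 (5.80 Mb) on it. On chromosome 4, the loop-free saline domain from 61920001 to 68160000 (6.24 Mb) faced 2 morphine domains of 3.20 and 3.12 Mb, parted by a boundary of score 0.359. The largest loop-free morphine domain outside chromosome X lay at chr1:78920001-84120000 (5.20 Mb), and the saline map had a loop-free domain 1 bin further on, from 78960001 to 84160000. On chromosome 7 the loop-free morphine domain from 144000001 to 149040000 (5.04 Mb) was a piece of a saline domain of 8.72 Mb. Of the loop-free large domains, 36 of 51 saline (70.6%, 56.2 to 82.5) and 39 of 57 morphine domains (68.4%, 54.8 to 80.1) had no loop of the other map inside. These shares were near those of loop-free domains of all sizes, 163 of 238 (68.5%) and 186 of 263 (70.7%).

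At the upper end, the large domains densest in loops lay on chromosomes 1, 16 and 19. In the saline map, the 3 with most loops per Mb were at chr1:25080001-28080000 (28 loops, 9.33 per Mb), at chr1:120800001-124240000 (25 loops, 7.27 per Mb) and at chr19:40000001-45600000 (36 loops, 6.43 per Mb). In the morphine map they were at chr19:40000001-43360000 (50 loops, 14.9 per Mb), at chr16:38280001-42120000 (57 loops, 14.8 per Mb) and at chr19:35360001-38400000 (39 loops, 12.8 per Mb). The saline map had 25, 24 and 18 loops inside these morphine intervals. On chromosome 19, known as gene-dense, the first of them was a piece of the saline domain of 5.60 Mb just named.

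Loops inside large and smaller domains had medians of length and strength whose intervals overlapped. The median span was 130 kb (120 to 140) in large and 140 kb (135 to 150) in smaller saline domains, and 140 kb (130 to 145) and 130 kb (130 to 140) in the morphine map. The median enrichment, contacts observed over contacts expected from the surrounding ring (the donut background), was 4.58-fold (4.47 to 4.72) and 4.56-fold (4.47 to 4.67) in the saline map and 3.73-fold (3.65 to 3.82) and 3.80-fold (3.72 to 3.87) in the morphine map. The median loop covered 3.33% of a large saline domain and 3.51% of a large morphine domain. Loops were spread over the length of large domains. Of the loops inside them, 7.80% in the saline (6.56 to 9.20) and 7.90% in the morphine map (6.87 to 9.03) had an anchor within 100 kb of an end, against 15.0% and 16.8% in smaller domains, where these 100 kb are a greater part of the length. With each large domain cut into 5 equal parts, 18.5%, 18.7%, 22.9%, 21.5% and 18.4% of the saline loop midpoints lay in them from start to end, and 20.2%, 18.5%, 21.6%, 20.5% and 19.3% of the morphine ones, where an even spread gives 20%. The longest stretch of a large domain without an anchor of a loop inside it had a median of 1.82 Mb (1.55 to 2.05) in the saline and 1.64 Mb (1.39 to 2.03) in the morphine map.

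A few loops spanned most of a large domain. Over 50% of the domain was covered by 11 saline loops, of 1860 to 3340 kb, and by 14 morphine loops, of 1600 to 3340 kb. The other map had a loop with both anchors within 10 kb of them for 8 of the 11 and 7 of the 14. Among all 5507 saline and 8425 morphine loops, 2267 pairs were matched. That count used reciprocally nearest loops of the same anchor size. The longest was the same in both maps and joined 43040001 to 43050000 and 46380001 to 46390000 on chromosome 20. It had 12 contacts and 9.02-fold enrichment (Poisson interval 4.66 to 15.8) in the saline map and 19 contacts and 7.27-fold enrichment (4.38 to 11.3) in the morphine map. The domain around it measured 4.52 Mb in the saline and 3.56 Mb in the morphine map, so that the loop covered 73.9% and 93.8% of it. On chromosome 10, inside the domain from 69640001 to 75040000, a loop of 2880 kb joined 71240001 to 71250000 and 74120001 to 74130000. It had 19 contacts against 0.196 expected in the saline map (97.1-fold, 58.5 to 152) and 36 against 0.595 in the morphine map (60.5-fold, 42.4 to 83.8), and was the most enriched loop of this domain in both maps. A loop of 2830 kb on chromosome 12, from 95130001 to 97970000, was also in both maps, with 11 and 9 contacts. These loops were chosen after their values were seen.

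Loops that joined the 2 ends of a large domain were rare. With anchor centres within 100 kb of the centres of both boundary bins, such a loop was found for 2 of 266 large saline domains (0.752%, 0.0912 to 2.69; 0.918% of all saline domains) and 1 of 260 large morphine domains (0.385%, 0.00974 to 2.12; 1.45% of all). Both maps had it on chromosome 2. The saline domain from 175560001 to 179080000 and the morphine domain from 175560001 to 179120000 were each spanned by 2 loops, with 30 and 25 contacts in the saline and 26 and 25 in the morphine map. The second saline case was at chr6:47400001-50680000, with scores of 3.40 and 2.56 at its ends and a loop of 3210 kb (14 contacts, 31.8-fold, 17.4 to 53.4). The morphine map had a loop of 3230 kb there (26 contacts, 8.61-fold, 5.63 to 12.6), with its second anchor 20 kb further on, not within 100 kb of the morphine boundary centre. These loops were chosen after their values were seen.

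The same intervals were then read with the loops of the other map. Inside the large saline domains lay 2536 morphine loops against 1666 saline loops, a ratio of 1.52 (1.43 to 1.62). Inside the large morphine domains lay 2481 morphine and 1592 saline loops, a ratio of 1.56 (1.46 to 1.66). In smaller domains the ratios were 1.45 (1.38 to 1.51) and 1.45 (1.39 to 1.52), and over the whole maps 1.53 (1.48 to 1.58). The intervals of large and smaller domains overlapped, so large domains had no excess of morphine loops of their own that could be resolved. At loops found in both maps, the contacts expected from the local background differed too: the median ratio of morphine to saline was 1.77 (1.69 to 1.89, n = 684 loops) in large and 1.63 (1.58 to 1.69, n = 1306) in smaller saline domains. In morphine domains it was 1.88 (1.76 to 1.96, n = 642) in large and 1.62 (1.58 to 1.68, n = 1322) in smaller ones. The median ratio was thus higher in large domains, though the intervals for saline domains all but met at 1.69. Chromosomes 10, 16, 19 and 20 held 413 of 1666 saline loops in large saline domains. They held 884 of 2481 morphine loops in large morphine domains. Without them, the loop ratios in large saline and large morphine domains were 1.35 and 1.40. The matched loops were not split by chromosome. Whether the higher median goes with domain size or with these chromosomes was not tested. With morphine contacts divided by the median ratio over all matched loops, 1.70, the loop ratios in large saline and large morphine domains were 1.38 (1.29 to 1.47) and 1.40 (1.32 to 1.498). This left 2295 of 2536 morphine loops in large saline domains and 2235 of 2481 in large morphine domains. No loop was called anew, so these ratios are not corrected for depth. The morphine map was pooled from more libraries.

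Of the loops in the authors' differential lists, 72 saline-side loops lay in large saline domains and 189 morphine-side loops in large morphine domains. These were 4.32% of the saline loops there (3.40 to 5.41), where 3.69% of all saline loops were listed, and 7.62% of the morphine loops (6.60 to 8.73), where 7.09% of all were listed. Both shares lay near the background.

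Most large domains had a large counterpart in the other map, counted at any degree of overlap. The 4 longest saline domains were among these, though the counterpart covered only 36.2% to 57.8% of them. The best-overlapping morphine domain was 3 Mb or more for 204 of 266 large saline domains (76.7%, 71.1 to 81.6), against 26.2% of all saline domains, most of which were under 3 Mb themselves. The best-overlapping saline domain was 3 Mb or more for 207 of 260 large morphine domains (79.6%, 74.2 to 84.3), against 28.9% of all. Of the length in large domains, 747.4 Mb was shared, which was 71.8% of the saline and 77.0% of the morphine set. Where the counterpart was under the limit, it often missed it narrowly: 29 of the 62 other saline and 31 of the 53 other morphine domains faced one of 2.5 to under 3 Mb. A counterpart under 2 Mb was found for 10 saline (3.76%) and 6 morphine domains (2.31%).

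Their exact ends were matched about as often as those of any domain. Both ends had a boundary of the other map within 40 kb for 82 of 266 large saline domains (30.8%, 25.3 to 36.8), against 31.4% of all, and for 78 of 260 large morphine domains (30.0%, 24.5 to 36.0), against 30.5% of all. Of the single boundaries, 240 of 465 were matched in the saline map (51.6%, 47.0 to 56.2), where 54.0% of all boundaries were, and 234 of 458 in the morphine map (51.1%, 46.4 to 55.8), where 52.0% were. Most misses were small: the median distance from an unmatched end to the nearest boundary of the other map was 120 kb in both. Within 80 kb, 70.5% of the saline and 68.3% of the morphine ends had a match. Matched ends were stronger: their median was 0.906 (0.782 to 1.01) against 0.709 (0.644 to 0.780) for unmatched ends in the saline map, and 0.836 (0.761 to 0.952) against 0.678 (0.602 to 0.743) in the morphine map.

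**Figure D5:**
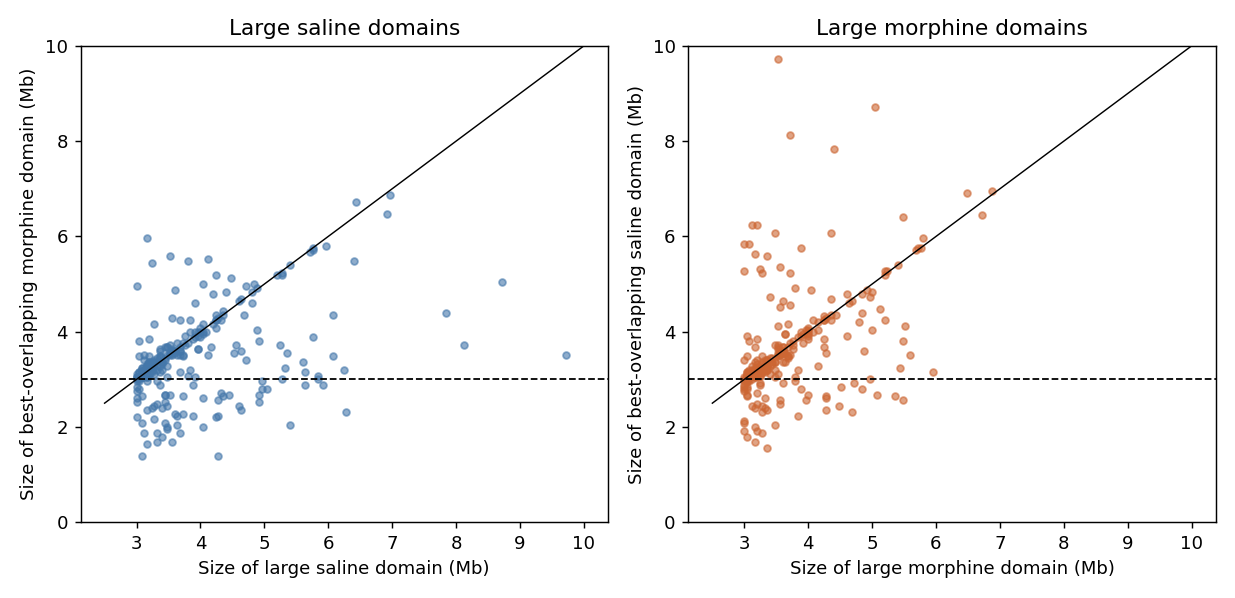
Size of each large domain (x axis, Mb) and of the domain of the other map that shares most bases with it (y axis, Mb), for 266 saline (left) and 260 morphine domains (right); the line marks equal size and the dashed line 3 Mb. Many points lie on or near the line, and the 4 longest saline domains (7.84 to 9.72 Mb) lie far below it.

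A domain of any size covering it and covered by it to 80% or more was found for 179 large saline domains (67.3%, 61.3 to 72.9; 70.7% of all saline domains) and 186 large morphine domains (71.5%, 65.6 to 76.9; 68.1% of all). In 169 pairs, both domains were large. Of these, 11 had the same start and end in both lists (4.14% of the large saline and 4.23% of the large morphine domains, against 5.93% and 5.71% of all domains). The saline domain was larger in 68 pairs, the morphine domain in 79, and 22 were of equal size. The pairs held 1106 saline and 1797 morphine loops, a ratio of 1.62 (1.51 to 1.75). Over the whole maps the ratio was 1.53 (1.48 to 1.58), and the intervals overlapped. Loops per Mb were higher in the morphine map in 101 pairs and lower in 40, and 24 pairs had no loop in either map. Pairs of smaller domains were not counted, so these numbers are not read as a trait of large domains.

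The 5 largest domains of each map with both ends in the same bins in both maps held from 1 to 54 loops. At chr14:63440001-69200000 (5.76 Mb), the start scored 1.82 and 1.83 and the end 0.383 and 0.355 in the saline and the morphine map, with 25 and 43 loops. At chr10:69640001-75040000 (5.40 Mb), the start scored 1.16 and 1.12 and the end 0.676 and 0.703, with 29 and 54 loops. At chr15:12240001-16520000 (4.28 Mb), the start scored 1.14 and 1.11 and the end 2.22 and 2.20, with 13 and 25 loops. The domain at chr10:81360001-85360000 (4.00 Mb), also listed alike, held 16 saline and 35 morphine loops. In these 4 domains the end scores were close in the maps, and the morphine map had more loops in each. The other 3 among the 5 largest of each map were divided in the other map. The saline domain at chr5:102280001-106560000 (4.28 Mb) held 1 loop in each map, and the morphine domain at chr13:81480001-86160000 (4.68 Mb) held 3 morphine loops and 1 saline loop. The morphine domain at chr1:46120001-50120000 (4.00 Mb) held 15 morphine and 9 saline loops.

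Loop density was higher in the large domains whose limits were alike in both maps than in the rest. In 67 saline domains with both ends matched and no morphine boundary inside there were 2.70 loops per Mb (2.495 to 2.91), and in the other 199 there were 1.26 (1.18 to 1.34). In 67 such morphine domains there were 4.81 loops per Mb (4.54 to 5.09), and in the other 193 there were 1.78 (1.69 to 1.88). The matched kind had the higher density on 16 of 19 chromosomes that held both kinds in the saline map and on 18 of 19 in the morphine map. Without chromosomes 10, 16, 19 and 20 the values were 2.27 and 1.12 in the saline and 3.57 and 1.43 in the morphine map, so the order held. The same order was present in smaller domains, with 2.5 (2.36 to 2.64) and 1.80 (1.72 to 1.88) loops per Mb in the saline and 3.94 (3.77 to 4.12) and 2.32 (2.23 to 2.41) in the morphine map, so it was not found in large ones alone. This split was chosen after seeing the data.

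Boundaries of the other map inside large domains were frequent in number and, with those near the ends counted, not per length. A morphine boundary lay more than 40 kb inside 138 of 266 large saline domains (51.9%, 45.7 to 58.0), against 39.2% of all saline domains. A saline boundary lay inside 145 of 260 large morphine domains (55.8%, 49.5 to 61.9), against 36.2% of all. Counted so, they were no more frequent per Mb than elsewhere. There were 0.187 (0.162 to 0.216) in large and 0.252 (0.228 to 0.278) in smaller saline domains. In the morphine map there were 0.198 (0.171 to 0.228) and 0.214 (0.193 to 0.238). Many lay near an end of the domain. Smaller domains have more ends per Mb, so the per-Mb values do not tell how often large domains were divided deep inside. Of the inner boundaries, 81 of 195 in saline domains and 115 of 192 in morphine domains lay within 200 kb of an end. A boundary more than 500 kb inside was found in 84 large saline domains (31.6%, 26.0 to 37.5; 11.3% of all saline domains) and 60 large morphine domains (23.1%, 18.1 to 28.7; 8.36% of all). The intervals of these 2 shares overlapped. The inner boundaries had median scores of 0.555 (0.517 to 0.610) in saline and 0.643 (0.582 to 0.721) in morphine domains, below the medians at the ends of large domains of the map they came from.

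The 4 longest saline domains were divided among several morphine domains. At chr6:22280001-32000000, the saline map had a single domain of 9.72 Mb with 4 loops, between boundaries of scores 0.426 and 0.754. The morphine map had domains of 2.20, 2.48, 3.52 and 1.52 Mb there, parted by boundaries of scores 0.472, 0.334 and 0.367, with 6 loops in the saline interval. At chr7:141240001-149960000, the saline domain measured 8.72 Mb and held 2 loops. The morphine map had domains of 2.56, 0.16, 5.04 and 1.00 Mb there, with boundaries of scores 0.530, 0.568 and 0.857 between them. At chr5:128640001-136760000, the saline domain of 8.12 Mb held 1 loop, and the morphine map had domains of 3.72, 2.36 and 2.24 Mb parted by boundaries of scores 0.908 and 0.667. The fourth was the loop-free domain on chromosome X described above. In these 4 domains the loops numbered 0 to 4 in the saline and 0 to 6 in the morphine map.

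The largest morphine domain was nearly alike in both maps. At chr2:103280001-110160000 (6.88 Mb), the saline map had a domain 1 bin wider at each end (6.96 Mb). The end scores were 1.23 and 1.55 in the morphine and 1.23 and 1.96 in the saline map, and no inner boundary was listed in either. It held 42 morphine and 28 saline loops, among them a loop of 1870 kb from 104300001 to 106180000 that was the most enriched in both (37.2-fold, 23.0 to 56.8, morphine; 49.1-fold, 26.9 to 82.4, saline). The next largest, at chr5:174640001-181360000 (6.72 Mb) and at chr1:64560001-71040000 (6.48 Mb), faced saline domains of 6.44 and 6.92 Mb, with 95.8% and 93.6% reciprocal overlap. The fourth, at chr10:25200001-31160000 (5.96 Mb), was the exception: the saline map had domains of 2.40 and 3.16 Mb inside it, with 3 inner boundaries of scores 0.694, 0.362 and 0.506. The fifth was the loop-free domain on chromosome X. Of 33 saline domains of 5 Mb or more, 13 had a best-overlapping morphine domain of that size, and of 25 morphine domains 13 had such a saline domain.

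Large domains with both ends matched and a boundary of the other map inside were few. There were 15 among the large saline domains (5.64%, 3.19 to 9.13; 2.17% of all saline domains) and 11 among the large morphine domains (4.23%, 2.13 to 7.44; 2.17% of all). The strongest inner morphine boundary, of score 1.07 at 95280001, lay in the saline domain at chr4:93560001-97920000, whose own ends scored 0.640 and 0.587. It left pieces of 1.72 and 2.64 Mb. At chr11:22360001-26080000, with both ends in the same bins in both maps, a morphine boundary of score 0.858 left pieces of 1.04 and 2.64 Mb. Chromosome 5 gave the other 3 of the 5 strongest. Its adjacent domains from 98720001 to 102240000 and from 102280001 to 106560000 had morphine boundaries of scores up to 0.761 and 0.704, and the boundary between them scored 1.26 in the saline and 0.838 in the morphine map. The third, from 69880001 to 74320000, had no saline loop and 1 morphine loop. In the other direction the inner saline boundaries were weaker, with at most 0.518, in the morphine domain at chr16:9680001-13000000, which held 22 morphine and 7 saline loops. The next lay at chr6:161640001-166720000 (score 0.458, 1 loop in each map), at chr3:89360001-92560000 (0.421), at chr17:13440001-16440000 (0.417) and at chrX:52320001-57520000 (0.417, 1 loop in each map). With 1 map per group, how often such a boundary would be found in a second map of the same group is not known.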

How the data were processed

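The series holds Hi-C libraries, but the files analysed hold 1 list of domains and 1 merged list of loops per group, each taken as 1 map pooled over its group; they name no library, aligner, caller or usable genome build. Per the deposited lists, domain ends lie in bins of 40 kb with a boundary score whose scale is not stated. The deposited loop lists give, per the file headers, whole-number counts of contacts per loop, the contact signal expected from 4 local backgrounds, and FDR values (a p-value type) for each. Library depth is unknown.

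Domains of 3 Mb or more were selected by end minus start. The limit, and every list, was chosen with earlier results of these data known. A boundary is the bin between adjacent domains; a gap of 2 bins counts once. Boundaries matched within 40 kb. A loop lay inside a domain if both anchors did. Intervals are 95%: exact Clopper-Pearson for shares, exact Poisson for counts, exact conditional binomial for ratios of counts, order statistics for medians. None covers the spread among monkeys, and no test between groups was possible. Domains and loops named by coordinates were, per map, the 5 largest and the 5 largest with both ends in the same bins. Also named per map were the 5 with the strongest inner boundary among those with both ends matched. The 3 with most loops per Mb and the 3 largest without a loop, per map, were named too. Beside these, the text names some of the domains tied at the size limit or 1 bin below it. It also names places said there to be chosen after their values were seen. Scripts ran in Python 3.11.15 with pandas 2.3.3 and SciPy 1.17.1 and were tested on simulated maps.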

Additional observations from a re-analysis of the deposited data

How the results depend on the processing

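No paired analysis was possible because each list pools the libraries of its group and no column carries a replicate number, so neither a block nor leaving out a replicate could be run. No direction turned under any alternative. Values are given for saline, then morphine domains. A size limit of 2.5 Mb gave 423 and 424 domains, 55.7% and 53.7% of domain length, and a counterpart past the limit for 85.3% and 87.7%. A limit of 3.5 Mb gave 140 and 128 domains, 24.1% and 20.8% of the length, density ratios of 0.710 and 0.960 (the morphine interval, 0.906 to 1.02, includes 1), an inner boundary for 62.1% of saline domains and a counterpart for 68.6% of them. Without chromosomes 10, 16, 19 and 20 the density ratios were 0.732 and 0.790 and the morphine to saline loop ratios 1.35 and 1.40. The same omission, chosen after seeing the data for the next values, gave 2.27 and 3.57 loops per Mb in matched, undivided large domains, 1.12 and 1.43 in all others, and 0.996 and 2.12 in domains of 5 Mb or more. Matching in the same bin gave both ends matched for 5.26% and 5.77% and an inner boundary for 69.9% and 70.8%. Matching within 80 kb gave both ends for 51.5% and 48.1%, and an inner boundary for 42.7% of morphine domains. Inner boundaries of score 0.5 or more were in 37.2% and 40%. The weaker end alone had medians of 0.566 and 0.582, the stronger 1.07 and 1.01. With 10 kb anchors alone the loop ratios were 1.16 and 1.15 and the morphine density ratio 0.848. With 5 kb anchors alone 41.7% and 39.2% of large domains had no loop, the loop ratios were 2.16 and 2.26 and the morphine density ratio 0.977 (0.912 to 1.05, which includes 1). The loop midpoint gave a morphine density ratio of 0.855. A reciprocal overlap of 80% was met by 67.3% and 71.5%, and of 90% by 59.4% and 63.1%. With morphine contacts divided by the median expected ratio of 1.70, which dropped loops and called none anew, the loop ratios were 1.38 and 1.40. The other 74 comparisons moved by less than their interval. Library depth is unknown, so how far a missing loop reflects depth was not tested, and 1 map a group limits each comparison.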
